A study of Mus musculus with 4 samples.

Results

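The 44 collagen genes of the mouse genome were followed through mammary tumours grown in hosts with and without interleukin 1α. Members were all features whose symbol reads Col, a number, a and a number, which gave 44 of the 31053 mouse features. The choice used no measured value. For each library, unique molecular identifiers (UMIs, each standing for 1 captured RNA molecule) were summed over fibroblast, tumour and phagocyte cells recognised by marker genes, and over near-empty droplets, which hold free RNA. The sums were then compared between host genotypes. No collagen served as a marker.

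Tumours were started from H605, a single HER2-positive mouse mammary tumour line. A dose of 2000000 cultured cells was placed in the mammary pad of mice of the FVB/NJ strain aged 6 to 8 weeks, and tumours were taken on day 14. The 4 libraries came from 2 WT hosts and 2 Il1a-/- hosts. The deletion was in the host alone, and the injected H605 cells were the same in both groups. Tumours were collected as 2 WT and knockout pairs on separate days, digested with collagenase IV and hyaluronidase, enriched for live cells and profiled with droplet-based 3' RNA sequencing. Each library is taken as 1 tumour, and p-values measure the spread between these 4 tumours.

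Collagens are extracellular proteins built from 3 chains wound into a triple helix, and each gene encodes 1 chain. Fibrillar collagens (types I, III, V and XI) form the fibres that give a tissue its strength. Type IV chains make the sheet of the basement membrane, and type VI chains form beaded filaments around cells. Fibril-associated collagens (types IX, XII and XIV) sit on the surface of fibres, and type VIII makes short-chain networks. Fibroblasts are the main source of fibrillar collagen in mammary tumours, while cartilage is the classical site of types IX and XI.

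Libraries held 6705368 to 29001333 UMIs, with both knockout libraries shallower than both WT libraries, and 3129 to 3874 called cells. The targeted gene was examined first: Il1a had 65 and 110 UMIs in called cells of WT replicates 1 and 2, and 1 and 0 in those of Il1a-/- replicates 1 and 2. The fibroblast gate kept 330 and 206 cells of WT replicates 1 and 2, and 277 and 244 of Il1a-/- replicates 1 and 2, with a median of 6756.5, 11436, 3197 and 7684 UMIs per cell in that order. All 10 fibroblast markers were present in each of these sums. Phagocyte-gated cells numbered 390, 665, 137 and 351. The tumour gate kept 327 and 219 WT cells but 23 and 2 knockout cells, so no test by genotype across genes was run in them. Pairs of libraries shared 0 to 5 called cell barcodes and 0 fibroblast barcodes. Levels below are CPM, the UMIs of a gene scaled to the same total in every sum. Groups of 4 values run in the order WT replicate 1, WT replicate 2, Il1a-/- replicate 1, Il1a-/- replicate 2. Because 3' UMIs count molecules, they do not grow with transcript length, but how well each transcript is captured was not measured.

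Fibroblast-gated cells carried most of the collagen RNA. Of 501747 collagen UMIs in called cells, 95.1% lay in fibroblast-gated cells, 3.63% in tumour-gated cells, 0.348% in cells gated as T or natural killer cells and 0.124% in phagocyte-gated cells. These are sums over the libraries: fibroblast-gated cells held 87.4%, 95.5%, 98.3% and 99.1% of each, and tumour-gated cells 10.2%, 3.54%, 0.37% and 0%. Without WT replicate 1 the tumour-gated part was 1.98%. The type I chain gene Col1a1 had 99.1% of its UMIs in fibroblast-gated cells. Another set sat in tumour-gated cells instead. Those cells held 96.9% of the UMIs of Col9a1, 92.7% of Col11a1, 91.1% of Col4a5 and 98.5% of Col4a6. The basement membrane gene Col4a1 was divided, with 53.6% in fibroblast-gated, 37.1% in tumour-gated and 5.61% in endothelial-gated cells. Most of the UMIs of Col17a1, a transmembrane collagen of epithelial attachment, lay elsewhere still, with 91.7% in cells gated as plasmacytoid dendritic.

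**Figure D1:**
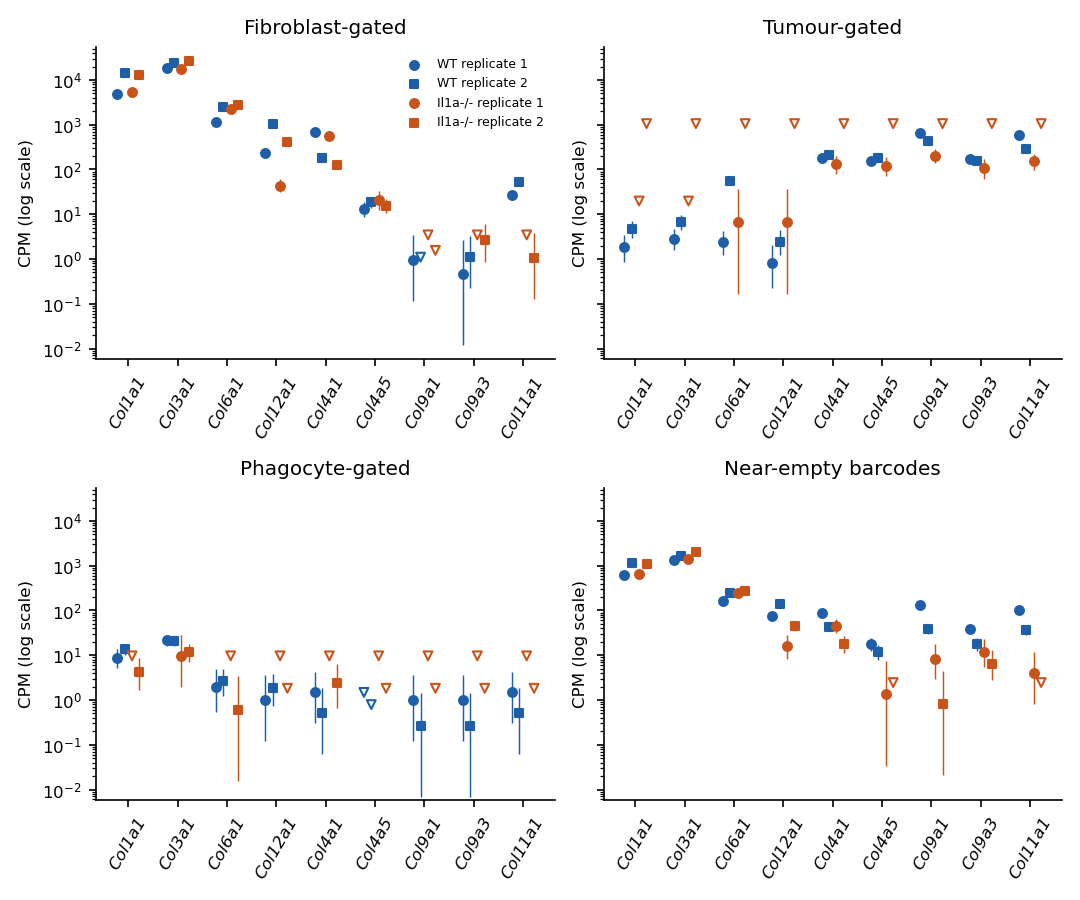
Level of 9 collagens in CPM (log axis) in sums over fibroblast-gated, tumour-gated, phagocyte-gated and near-empty barcodes, 1 panel each, with 1 point per library. Bars are exact 95% Poisson intervals, which cover counting error only, and open triangles mark 0 UMIs, drawn at the limit of 3 counts. Col1a1 and Col3a1 stand highest in fibroblast-gated cells, Col9a1 and Col11a1 in the tumour-gated cells of 3 libraries, and phagocyte-gated cells lie far below both.

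The stretch of 250 bases before the start site is shown for 4 genes that lead these patterns, from RefSeq on GRCm38.p6: Col3a1, the highest collagen of fibroblast-gated cells, Col8a1, whose free RNA fell in knockout hosts, and Col9a1 and Col11a1, the leading collagens of tumour-gated cells. Of the 44 collagens, 35 matched the RefSeq promoter table, with 38 start sites. Capitals mark matches, on either strand, to TATAAA (the TATA box), CCAAT (the CCAAT box), GGGCGG (the GC box) or AACAAT (letters bound by SOX factors), which were searched exactly and do not overlap one another except where 2 matches to AACAAT on opposite strands do. Sequences read 5′ to 3′ along the gene's own strand. Col3a1 lies on the + strand of chromosome 1, with the window chr1:45311288-45311537, Col8a1 on the - strand of chromosome 16 (chr16:57754738-57754987), Col9a1 on the + strand of chromosome 1 (chr1:24177360-24177609, the first of 2 start sites) and Col11a1 on the + strand of chromosome 3 (chr3:114030290-114030539).
Col3a1: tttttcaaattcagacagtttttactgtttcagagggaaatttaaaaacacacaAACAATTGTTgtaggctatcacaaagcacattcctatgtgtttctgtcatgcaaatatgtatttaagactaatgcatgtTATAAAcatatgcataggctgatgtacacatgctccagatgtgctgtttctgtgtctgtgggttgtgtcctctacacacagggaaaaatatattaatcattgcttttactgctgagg
Col8a1: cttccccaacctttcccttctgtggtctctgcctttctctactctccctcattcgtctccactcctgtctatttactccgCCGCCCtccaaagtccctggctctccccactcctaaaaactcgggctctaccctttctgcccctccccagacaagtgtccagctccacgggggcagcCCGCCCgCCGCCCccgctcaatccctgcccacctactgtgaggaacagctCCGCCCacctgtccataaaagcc
Col9a1: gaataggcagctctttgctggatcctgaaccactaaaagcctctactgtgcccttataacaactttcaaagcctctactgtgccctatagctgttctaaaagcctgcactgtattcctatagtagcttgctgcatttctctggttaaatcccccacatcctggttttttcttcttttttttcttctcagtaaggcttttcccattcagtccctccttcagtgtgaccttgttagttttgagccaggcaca
Col11a1: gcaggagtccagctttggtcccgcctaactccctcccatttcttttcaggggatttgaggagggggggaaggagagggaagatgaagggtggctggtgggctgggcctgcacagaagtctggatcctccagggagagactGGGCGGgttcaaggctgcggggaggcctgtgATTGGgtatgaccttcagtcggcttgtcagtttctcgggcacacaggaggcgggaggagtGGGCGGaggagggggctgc
The Col3a1 window held 1 TATAAA and a pair of overlapping AACAAT matches, and no other collagen window held AACAAT. Among 32851 windows of the same length before all listed start sites, 9.42% held AACAAT and 12.4% held TATAAA. The Col8a1 window held 4 GGGCGG, the Col11a1 window 2 GGGCGG and 1 CCAAT, and the Col9a1 window no match. GGGCGG was found in 22 of the 38 collagen windows against 32.7% of all windows, CCAAT in 13 against 33.9%, TATAAA in 5 and AACAAT in 1. A match is a description of letters and does not show a bound site.

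In fibroblast-gated cells, no collagen differed between host genotypes past the threshold. Of the 44 members, 36 had a UMI there, 8 were at 0, and the 26 with at least 91 UMIs passed the filter on low counts. The edgeR quasi-likelihood test with Benjamini-Hochberg adjustment over 9928 genes called 0 of the 26, and the background was 0%. An unadjusted p under 0.05 was found for 5 collagens (Col11a1, Col6a6, Col8a2, Col7a1 and Col6a5), with 5.05% of all genes past that mark, and DESeq2 called 1. The median log2 difference, knockout minus WT, was -0.02 over the 26 collagens and -0.01 over all genes tested.

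The abundant fibrillar collagens showed large spread within each genotype. Col3a1, the type III chain (ENSMUSG00000026043, + strand of chromosome 1), stood at 18559, 24237, 17468 and 26046 CPM. The knockout values lay on both sides of the WT values, and the log2 difference was 0.03 (SE 0.46, adjusted p = 0.999 in edgeR). Col1a2, the α2 chain of type I, stood at 9278, 22825, 8889 and 18761 CPM, a log2 difference of -0.20 (SE 0.64, adjusted p = 0.98 in edgeR). Col1a1, the α1 chain of type I, stood at 4811, 14658, 5326 and 12838 CPM, a log2 difference of -0.08 (SE 0.71). For both type I chains the groups overlapped, and each genotype's replicate 2 was more than its replicate 1. The means of Col1a1 were 9734 ± 6963 in WT and 9082 ± 5312 CPM in knockout samples (SD, n = 2 each). The type V chains Col5a1 and Col5a2, which set fibre width, overlapped as well: Col5a2 stood at 1596, 2804, 1169 and 2709 CPM. Col5a1 stood at 726, 1403, 1070 and 1198 CPM. Their log2 differences were -0.16 (SE 0.54) for Col5a2 and 0.09 (SE 0.41) for Col5a1. The remaining type V chain, Col5a3, stood at 283, 477, 791 and 549 CPM, both knockout values above both WT values, and did not pass (0.81, SE 0.38, adjusted p = 0.859 in edgeR). The fibre-surface collagen Col14a1 stood at 878, 1431, 1077 and 1538 CPM and also overlapped (0.19, SE 0.40).

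Type VI chains had positive log2 differences, and none was called. Col6a1 stood at 1167, 2437, 2228 and 2758 CPM, and the groups overlapped (log2 difference 0.47, SE 0.45). Col6a2 stood at 852, 1886, 2299 and 2321 CPM, with both knockout values above both WT values (0.76, SE 0.45, adjusted p = 0.859 in edgeR). Col6a3, the largest of the chains, stood at 759, 1479, 1146 and 2326 CPM and overlapped (0.65, SE 0.52). The groups were apart for 2 further chains of the family. Col6a5 stood at 349, 480, 655 and 855 CPM, a log2 difference of 0.87 (SE 0.34, adjusted p = 0.859). Col6a6 stood at 57.4, 46.9, 95.6 and 121 CPM, a log2 difference of 1.07 (SE 0.27, adjusted p = 0.859), again in edgeR. Beaded-filament chains together made up 7.74%, 8.22%, 14.8% and 11.4% of the collagen UMIs of fibroblast-gated cells, higher in both knockout samples. Fibrillar chains made up 85.9%, 86.4%, 80.0% and 84.6%.

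Lower values in the knockout samples were seen for a set of less abundant collagens. Col11a1, the α1 chain of type XI (ENSMUSG00000027966, + strand of chromosome 3), had 58, 145, 0 and 2 UMIs, or 27.0, 53.2, 0 and 1.04 CPM. Both WT samples lay above both knockout samples. Pooled over libraries, the WT level per UMI was 58.2 times the knockout level, with an exact counting interval from 15.9 to 484. The fitted log2 difference of -5.70 (SE 0.76) depends on the prior count at such low values. Its adjusted p was 0.514 in edgeR and 0.00486 in DESeq2, which tested 36 collagens and called 0.0832% of all genes. With no filter on low counts edgeR called 5 collagens, all lower (Col7a1, Col8a1, Col8a2, Col11a1 and Col12a1), and 1.36% of all genes. Col7a1, the anchoring fibril of skin, stood at 10.7, 21.3, 0 and 5.20 CPM, and Col8a2, a type VIII chain, at 19.1, 51.3, 2.30 and 13.0 CPM. For both, the groups did not overlap, and neither passed (adjusted p = 0.859 each in edgeR). Col8a1, the other type VIII chain, stood at 85.3, 546, 8.06 and 113 CPM, and Col12a1, which sits on fibre surfaces, at 232, 1054, 43.8 and 412 CPM. Their groups overlapped, with log2 differences of -2.31 (SE 1.27) and -1.45 (SE 1.13). Without WT replicate 2 these became -0.39 and 0.04. In all, the groups were apart for 7 of the 26 tested collagens, 4 higher (Col5a3, Col6a2, Col6a5, Col6a6) and 3 lower (Col7a1, Col8a2, Col11a1), against 36.8% of all genes tested. Of these, Col11a1 passed the filter on low counts through the WT samples.

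Col11a1 came from a minority of the fibroblast-gated cells. A UMI was seen in 17 of 330 cells (5.15%, exact 95% interval 3.03% to 8.12%) in WT replicate 1 and in 28 of 206 (13.6%, 9.23% to 19.0%) in WT replicate 2. It was seen in 0 of 277 in Il1a-/- replicate 1, which allows a share of up to 1.08%, and in 2 of 244 (0.82%) in Il1a-/- replicate 2. T and natural killer cells, which should lack the gene, gave 0.391%, 0.316%, 0% and 0% at medians of 2943, 4220.5, 1354.5 and 2818 UMIs per cell. With each fibroblast-gated cell thinned to 2000 UMIs, the shares were 4.08%, 5.51%, 0% and 0.479%, leaving out 67, 22, 62 and 28 shallower cells. Both WT shares stayed above both knockout shares. Tumour epithelial markers, whose cells also carry Col11a1, summed to 25.6 and 20.5 CPM (9 and 10 of 10 markers with a UMI) in the fibroblast-gated sums of the WT samples. They summed to 12.7 and 14 CPM (3 and 4 of 10 markers) in those of the knockout samples, where Epcam, Krt8, Krt18, Cldn4 and Cldn7 were at 0 in both. Mural cell markers moved the same way, at 54.1, 53.9, 32.2 and 37.9 CPM, with 4, 5, 2 and 5 of 6 having a UMI. Higd1b was at 0 in every sum, and Rgs5, Notch3 and Cspg4 were at 0 in Il1a-/- replicate 1. Phagocyte markers did so too, at 137, 115, 66.8 and 102 CPM (11, 11, 6 and 12 of 13). Endothelial markers, at 10.3, 15.4, 32.2 and 29.1 CPM, moved the other way, but only 3, 5, 2 and 3 of 6 had a UMI. Cdh5, Cldn5 and Emcn were at 0 in both knockout samples and in WT replicate 1. Plasmacytoid dendritic markers also moved the other way, at 0.933, 2.57, 10.4 and 9.35 CPM (2, 4, 3 and 5 of 5). Their part in the Col11a1 difference was not tested. Col9a1, also high in tumour-gated cells, had 2, 0, 0 and 0 UMIs in the fibroblast-gated sums.

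**Figure D2:**
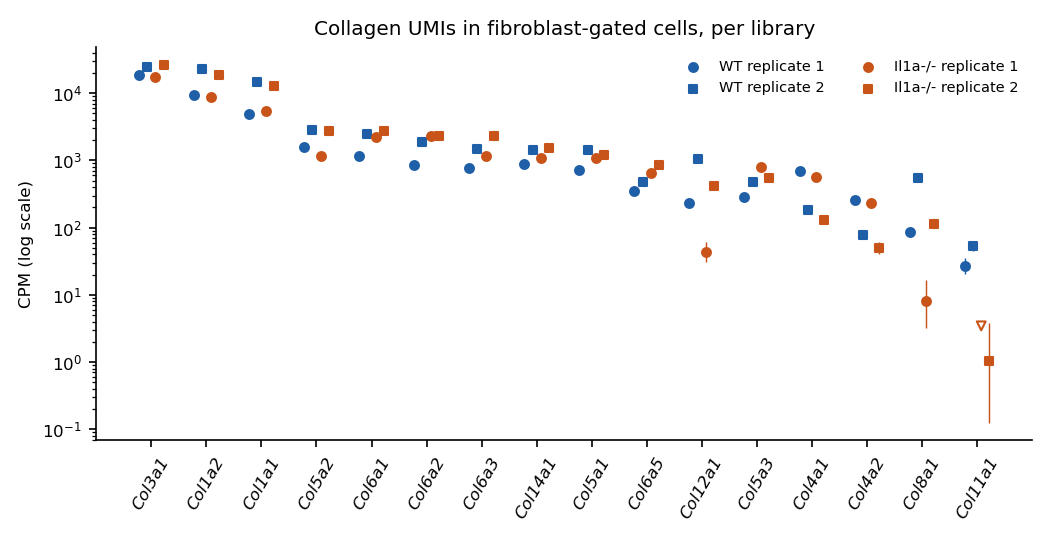
Level of 16 collagens in fibroblast-gated cells in CPM (log axis), 1 point per library, with exact 95% Poisson counting intervals. Open triangles mark 0 UMIs, drawn at the limit of 3 counts. Col1a1 and Col1a2 split by replicate number within each genotype, Col4a1 and Col4a2 split the other way, and Col11a1 is near 0 in both knockout samples.

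The collagen load of fibroblast-gated cells did not differ between genotypes beyond the spread within them. Collagens made up 4.11%, 7.70%, 4.34% and 7.35% of their UMIs, with means of 5.91% ± 2.54 in WT and 5.84% ± 2.12 in knockout samples (SD, n = 2 each). The difference was -0.0622 percentage points with an exact two-sided permutation p of 1; the smallest p that 6 assignments of the 4 samples allow is 0.333. Each replicate 2 sample was above each replicate 1 sample. Per cell, the median share was 3.56%, 6.41%, 4.18% and 6.69%, and no fibroblast-gated cell lacked a collagen UMI.

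**Figure D3:**
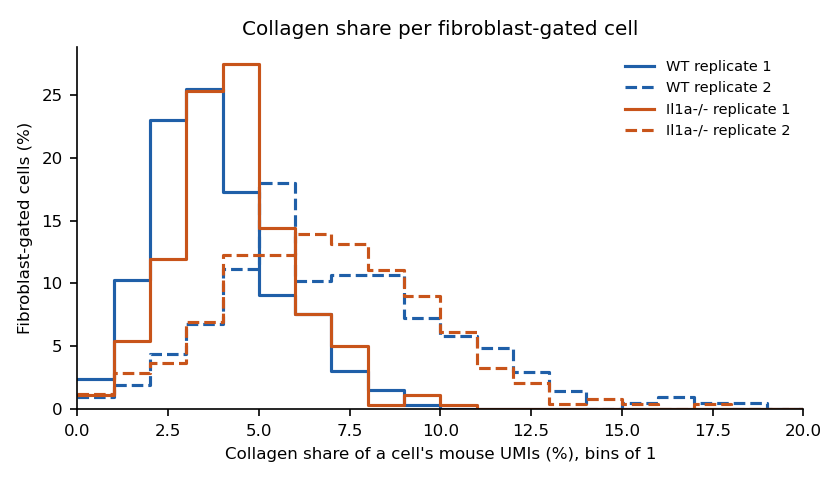
Distribution of the collagen share of UMIs per fibroblast-gated cell, in bins of 1%, as percent of the cells of each library. The replicate 1 libraries of both genotypes peak at lower shares than the replicate 2 libraries, with medians of 3.56% and 4.18% against 6.41% and 6.69%.

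Replicate number separated the fibroblast collagens more often than genotype did. Both replicate 2 samples lay above both replicate 1 samples for 14 of the 26 tested collagens (53.8%), against 16.6% of all genes tested. The reverse order held for 4, Col4a1, Col4a2, Col4a4 and Col18a1 (15.4%), against 22.6%. In Col1a1 the replicate 2 level was 3.05 times the replicate 1 level in WT samples and 2.41 times in knockout samples. The ratio was 2.46 and 2.11 for Col1a2, 1.31 and 1.49 for Col3a1, 4.55 and 9.42 for Col12a1, and 6.40 and 14 for Col8a1. The main basement membrane chains ran the other way: Col4a1 stood at 696, 181, 565 and 128 CPM and Col4a2 at 256, 78.1, 229 and 49.4 CPM. Replicate 1 was thus 3.84 and 4.41 times replicate 2 for Col4a1, in WT and in knockout samples. The labels do not say which samples shared a collection day, and whether these numbers mark the days was not tested. Clusters split the same way: a fibroblast cluster of 679 cells drew 295, 62, 271 and 51 cells from the 4 libraries, and one of 433 cells drew 58, 158, 14 and 203.

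Ratios were read between chains that share a protein or a fibre. Col4a1 and Col4a2, whose start sites lie 21 bases apart on opposite strands of chromosome 8, gave Col4a1 to Col4a2 UMI ratios of 2.72, 2.32, 2.47 and 2.60 in fibroblast-gated cells. Their exact 95% counting intervals overlapped across the libraries, from a lowest bound of 1.97 to a highest of 3.33, although the levels themselves split by replicate number. Type I is a trimer with more α1 than α2 chains, yet Col1a2 to Col1a1 was 1.93, 1.56, 1.67 and 1.46 at the level of captured RNA. Col3a1 to Col1a1 was 3.86, 1.65, 3.28 and 2.03, higher in both replicate 1 samples. Col5a2 to Col5a1 was 2.20, 2.00, 1.09 and 2.26, with Il1a-/- replicate 1 the low one, and Col6a1 to Col6a2 was 1.37, 1.29, 0.969 and 1.19.

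The genes that fold, process, bind and sense collagen were followed beside the members in the same fit. None of the 20 tested genes for collagen folding and modification passed in fibroblast-gated cells (median log2 difference -0.18). The smallest p belonged to Colgalt2, which adds galactose to collagen (1.81, SE 0.59, adjusted p = 0.859 in edgeR), and Ppib, a prolyl isomerase (-0.58, SE 0.35). None of 10 processing and crosslinking genes passed (median -0.18), with Adamts14, which trims procollagen, at 1.00 and Lox, which crosslinks fibres, at -1.0. Neither did any of 12 fibril partners (median -0.26; Fmod -1.34, Fn1 0.75), 7 collagen receptors (median 0.13; Itga11 0.92, Itga1 -1.43), 7 myofibroblast genes (median -1.84; Myl9 -1.84, Acta2 -2.60) or 8 adventitial genes (median 0.44; Ackr3 1.37, Fn1 0.75). The median over all genes tested was -0.01. An unadjusted p under 0.05 was found for 1 folding gene, 1 processing gene and 1 myofibroblast gene.

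Fibroblasts were then divided by a UMI of Pi16 or Dpp4, markers of adventitial fibroblasts, which line vessels and fascia. Such a UMI was found in 80.6%, 59.2%, 87.4% and 66.0% of fibroblast-gated cells, and these cells were deeper, with a median of 7283.5, 13411, 3306.5 and 8048 UMIs against 2286.5, 8144.5, 2246 and 6423 in the cells without. Depth thus moved with the split, and its part in the differences was not tested. Of 25 collagens tested, 6 fell in cells with a Pi16 or Dpp4 UMI and 0 rose (edgeR with the library as a block), and 14 had an unadjusted p under 0.05 against 15.9% of genes. The calls stand against 1.96% of 7668 genes lower and 2.9% higher. The median log2 difference was -0.03 over the collagens and 0.00 over all genes. Col12a1 stood at 109, 519, 32.8 and 313 CPM in cells with a Pi16 or Dpp4 UMI and at 1035, 1996, 160 and 633 CPM in cells without (-2.07, SE 0.29, adjusted p = 0.000989). It was lower with the UMI in 4 of 4 libraries. Col8a1 stood at 45.1, 240, 1.26 and 103 CPM with and 348, 1086, 80.2 and 134 CPM without (-2.02, SE 0.39, adjusted p = 0.00851), lower in 4 of 4. Col11a1 stood at 11.3, 12.6, 0 and 0 CPM with and 130, 125, 0 and 3.35 CPM without (-3.41, SE 0.28, adjusted p = 2.5e-05). It was lower with the UMI in both WT libraries. Il1a-/- replicate 2 had 0 Col11a1 UMIs with and 2 without, too few to read, and Il1a-/- replicate 1 had none in either. Col11a1 passed the filter on low counts through the WT samples, which limits what its p-value shows.

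The other calls in that split were Col24a1 (-1.42, SE 0.34, adjusted p = 0.0285), a fibrillar chain, Col15a1 (-1.05, SE 0.26, adjusted p = 0.0318), a collagen of vessel and muscle basement membranes, and the fibrillar Col27a1 (-1.02, SE 0.26, adjusted p = 0.0373), all with edgeR. Without WT replicate 1 or without WT replicate 2, Col12a1 alone passed, at -1.57 and -2.14, with 2.01% and 2% of all genes. The abundant chains differed less. Col1a1 stood at 4336, 13851, 5278 and 12523 CPM with and 7919, 16081, 5838 and 13536 CPM without (-0.30, SE 0.15, adjusted p = 0.357 in edgeR). Col3a1 stood at 18965, 27400, 17866 and 27728 CPM with and 15901, 18658, 13252 and 22309 CPM without, higher with the UMI in 4 of 4 libraries and not past the threshold (0.42, SE 0.12, adjusted p = 0.0648). Other genes divided along the same line. In the cells with a UMI, 5 of 7 myofibroblast genes fell, among them Tpm2 (-2.61), Tagln (-2.81), Acta2 (-3.20) and Inhba (-3.84), and 7 of 8 adventitial genes rose. Pi16 and Dpp4 are 2 of the 7 and defined the split; the others included Anxa3 (1.79) and Sema3c (2.45). Of 12 fibril partners, 3 rose, among them Prelp (1.26), Tnxb (1.25) and Ogn (0.83), and 3 fell, led by Tnc (-2.78). Pcolce2 (1.45), which enhances procollagen trimming, and Loxl1 (0.63) rose and Loxl3 (-1.40) fell among 9 processing genes. The receptors Ddr2 (0.79) rose and Itga1 (-2.02) fell, of 6 tested, and none of 19 folding genes passed.

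**Figure D4:**
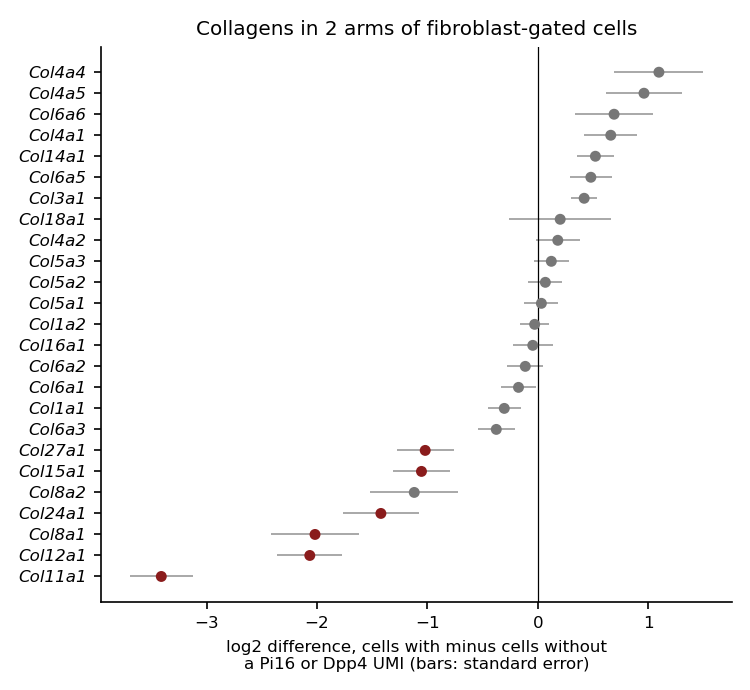
Log2 difference of 25 collagens between fibroblast-gated cells with and without a Pi16 or Dpp4 UMI, from edgeR with the library as a block; bars are 1 standard error and red marks an adjusted p under 0.05. The 6 called collagens lie between -3.41 (Col11a1) and -1.02 (Col27a1), while Col3a1 lies at 0.42.

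Tumour-gated cells made a different set of chains. Collagens were 0.209%, 0.172%, 0.0936% and 0% of their UMIs, the last from 2 cells. The genotype means were 0.190% ± 0.0260 in WT and 0.0468% ± 0.0662 in knockout samples (SD, n = 2 each). The exact permutation p was 0.333, the smallest this design allows. In the 2 cells of Il1a-/- replicate 2, 1 UMI stands at 353 CPM. No genotype difference is read from these means. Among those UMIs, fibril-associated chains made up 43.5%, 37.6% and 35.9% in the first 3 libraries, basement membrane chains 21.9%, 30.7% and 38.7%, and fibrillar chains 30.4%, 19.7% and 18.3%. Against fibroblast-gated cells, with the library as a block, 7 of 30 tested collagens were higher (background 25.1%) and 22 lower (background 25.6%) in edgeR; Col27a1 was not called (-0.51, SE 0.33, adjusted p = 0.223). Il1a-/- replicate 2 is not in the tumour side of this fit. The 30 passed the filter on low counts over fibroblast, tumour, phagocyte and near-empty sums together, so nothing is read from these counts.

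Type IX chains were part of the tumour set, and Col9a1 led it by level. Col9a1 stood at 648, 424 and 204 CPM in the tumour-gated sums of WT replicates 1 and 2 and Il1a-/- replicate 1, and a UMI was found in 72.5%, 51.6% and 47.8% of the cells. These were 327, 219 and 23 cells, whose sums held 4896032, 4496523 and 151015 UMIs of the genes tested. The shares were not matched for depth. Fibroblast-gated cells held 2 UMIs of Col9a1 in all, so the pooled tumour level was 2052 times as high, with an exact counting interval from 568 to 16952. Col9a2 stood at 36.2, 28.5 and 0 CPM and had no UMI in fibroblast-gated cells; over all libraries its tumour level was at least 81.7-fold higher than the 3-count limit. In DESeq2 its adjusted p was 0.222. Col9a3, the remaining type IX chain, stood at 175, 151 and 105 CPM (log2 difference 6.52, SE 0.49, adjusted p = 1.9e-08 in edgeR). Col9a1 to Col9a3 was 3.70, 2.81 and 1.94. The WT replicate 1 value was the highest and the knockout value the lowest for each of these chains.

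Col11a1, whose protein joins type IX in cartilage fibres, stood at 584, 283 and 152 CPM in tumour-gated cells (log2 difference from fibroblast-gated cells 3.4, SE 0.50, adjusted p = 3.44e-05 in edgeR). The X-linked basement membrane chains were higher too: Col4a5 stood at 158, 181 and 119 CPM (2.79, SE 0.49, adjusted p = 0.000387) and Col4a6 at 15.8, 25.2 and 6.59 CPM. Fibroblast-gated cells held 1 Col4a6 UMI, a pooled ratio of 154 with an interval from 27.3 to 6119. These neighbours start 1343 bases apart on opposite strands of chromosome X. Col4a1 was lower than in fibroblast-gated cells, at 184, 213 and 132 CPM (-1.36, SE 0.38, adjusted p = 0.00757), and Col4a1 to Col4a2 was 2.00, 2.00 and 1.25. Col18a1, the source of endostatin, was called higher (0.98, SE 0.33, adjusted p = 0.0221) but not without WT replicate 2 (0.17, adjusted p = 0.768) or in DESeq2 (0.72, adjusted p = 0.268). The type I and III chains stood at 0 to 6.64 CPM, with Col3a1 at 2.84, 6.64 and 0, a log2 difference from fibroblast-gated cells of -12.5 (SE 0.43, adjusted p = 7.81e-12 in edgeR).

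Tumour-gated sums also held transcription factor genes of cartilage and of glial cells. Sox9, which drives cartilage collagens, stood at 157, 148 and 277 CPM, against 21.4, 15.4 and 5.76 CPM in fibroblast-gated cells of the same libraries. Sox10, a neural crest factor, stood at 197, 142 and 112 CPM. Their part in the collagen levels was not tested.

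Phagocyte-gated cells showed collagen RNA at a level far under that of free RNA. Collagens together stood at 115, 86.4, 16.2 and 34.1 CPM, or 2.70%, 1.38%, 0.383% and 0.566% of the level in the near-empty droplets of the same library. Fibroblast markers stood at 1.86%, 1.47%, 0% and 0.957% of theirs, with 10, 10, 0 and 5 of the 10 markers having a UMI. All 30 tested collagens were lower than in near-empty droplets in edgeR (background 26.7%), and 26 of 30 were higher (background 29.4%) and 0 lower (background 26.3%) in fibroblast-gated than in phagocyte-gated cells. Col9a1, Col9a2, Col9a3 and Col4a6 were not called there. The 30 passed the filter on low counts over phagocyte, fibroblast, tumour and near-empty sums together. Nothing is therefore read from how many were called. By genotype, 3 collagens had enough counts to test and 0 passed in edgeR (background 0.672% of 8935 genes), with 2 at an unadjusted p under 0.05 against 13.9% of genes, and DESeq2 called 0 of 28 (2.32% of all genes). Col3a1 stood at 21.7, 20.8, 9.69 and 11.6 CPM (-0.85, SE 0.35, adjusted p = 0.328). Col1a2 stood at 14.8, 16.3, 0 and 7.92 CPM (-1.21, SE 0.54, adjusted p = 0.358), and Col1a1 at 8.86, 13.7, 0 and 4.26 CPM (-1.64, SE 0.64, adjusted p = 0.293). Both WT values were above both knockout values for all 3, and groups did not overlap for 47.4% of genes. Nothing is read from that count, since Il1a-/- replicate 1 was at 0 for Col1a1 and Col1a2, which passed the filter on low counts through the other samples. Col1a1 had a UMI in 3.59%, 7.52%, 0% and 1.99% of phagocyte-gated cells at medians of 4089, 4662, 1768 and 3887 UMIs, and in 1.95%, 4.79%, 0.623% and 1.25% of T and natural killer cells.

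Free RNA, read from droplets with 1 to 100 UMIs, gave the only collagen calls by genotype in edgeR with all 4 libraries and the filter on low counts. Such a sum mixes RNA of every cell type, and fewer cells of a type and less RNA per cell cannot be told apart in it. Of 26 collagens tested, 4 passed in edgeR (background 1.22%), 1 higher (background 0.705%) and 3 lower (background 0.514%) in knockout hosts. The median log2 difference was -0.87 over the collagens and -0.02 over all genes. Groups did not overlap for 18 of the 26, 6 higher and 12 lower, against 51.6% of all genes, and 15 had an unadjusted p under 0.05 against 20.4%. Nothing is read from the 18 or the 15, since members such as Col11a1 passed the filter on low counts through the WT samples. Col11a1 had 280 UMIs in the WT samples and 3 in the knockout samples. Collagens together were 0.526% ± 0.140 of UMIs in WT and 0.512% ± 0.128 in knockout samples (SD, n = 2 each; exact permutation p = 0.667). Barcodes of 21 to 100 UMIs gave 43.0%, 55.6%, 17.5% and 15.5% of the near-empty UMIs. In those barcodes collagens were 0.534% ± 0.122 in WT and 0.340% ± 0.0283 in knockout samples (exact permutation p = 0.333, the smallest this design allows), and in barcodes of 1 to 20 UMIs 0.521% ± 0.155 and 0.545% ± 0.144 (exact permutation p = 0.667). This division was added after seeing the data.

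Col8a1 was one of the collagens that fell. It stood at 42.5, 77.2, 12.1 and 5.72 CPM in near-empty droplets, both WT values above both knockout values (-2.99, SE 0.47, adjusted p = 0.0408 in edgeR). Col11a1 stood at 101.5, 35.8, 4.03 and 0 CPM (adjusted p = 0.0441), with 280 UMIs in the WT samples against 3 in the knockout samples, a ratio of 43.0 with an exact counting interval from 14.5 to 210. Col4a5 stood at 17.6, 11.9, 1.34 and 0 CPM (adjusted p = 0.0497), 62 UMIs against 1, a ratio of 28.5 with an interval from 4.94 to 1145. These 3 genes were lower in both knockout samples. Col11a1 and Col4a5 passed the filter on low counts through the WT samples, which limits what their p-values show. Col6a5 was the one that rose, at 27.5, 30.3, 68.6 and 99.6 CPM (1.40, SE 0.24, adjusted p = 0.0441). Without Il1a-/- replicate 2 none of the 4 passed, and the log2 differences were -2.33 for Col8a1, -4.07 for Col11a1, -3.40 for Col4a5 and 1.22 for Col6a5. Of all genes, 0.154% then passed. Without WT replicate 1 there were 8 collagen calls, with 6.47% of all genes, and without WT replicate 2 there were 11, with 6.38%. DESeq2 called 3, all lower (Col8a1, Col9a1 and Col12a1), and 1.79% of all genes.

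Other collagens of the free RNA came near the threshold. Col9a1 stood at 130.0, 37.9, 8.07 and 0.817 CPM (-4.63, SE 0.89, adjusted p = 0.056 in edgeR), Col12a1 at 75.6, 143, 16.1 and 45.7 CPM (-1.92, SE 0.43, adjusted p = 0.0709) and Col5a3, a fibrillar type V chain, at 31.1, 45.6, 124 and 96.4 CPM (1.38, SE 0.29, adjusted p = 0.0658). None of these passed. Both replicate 2 samples lay above both replicate 1 samples for 6 of the 26 collagens, against 17.8% of all genes, and below for 2, Col4a1 and Col4a2, against 10%. The main fibroblast chains overlapped between genotypes, with Col1a1 at 622, 1171, 640 and 1112 CPM and Col3a1 at 1366, 1609, 1450 and 1990 CPM. Tumour epithelial markers moved with the tumour collagens in this free RNA: their sum was 979 and 755 CPM in the WT samples and 192 and 38.4 CPM in the knockout samples, with 9, 10, 10 and 7 of 10 markers having a UMI and Krt7, Krt19 and Cldn3 at 0 in Il1a-/- replicate 2. Mural markers summed to 40.9, 17.5, 12.1 and 8.17 CPM, with 6, 6, 4 and 3 of 6 having a UMI. T and natural killer cell markers were higher in both knockout samples, at 915, 1349, 2132 and 2306 CPM, with 10 of 10 having a UMI in each sample. Fibroblast markers summed to 1111, 894, 1060 and 1146 CPM, overlapping between genotypes. Of 6 tested myofibroblast genes, Tagln (-2.49, adjusted p = 0.0289) and Acta2 (-2.44, adjusted p = 0.0477), which build contractile filaments, fell. The part of tumour cell number or of these cell types in the collagen calls was not tested.

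Whether the genotype difference of a collagen depended on where it was measured was tested as an interaction. Against phagocyte-gated cells, 0 of 26 collagens passed in edgeR (background 0.0372%), with 10 at an unadjusted p under 0.05 against 6.27% of genes, and DESeq2 called 0 (background 0.153%). Only 3 collagens had enough counts to test in phagocyte-gated cells alone, where Il1a-/- replicate 1 held 5 collagen UMIs in all. Nothing is read from the 10, since the filter on low counts was passed over all of these sums together. The smallest p belonged to Col6a3 (interaction 3.26 on the log2 scale, SE 0.71, adjusted p = 0.22). Against near-empty droplets 0 of 26 passed (background 0%), with 2 at an unadjusted p under 0.05 against 7.15%, and DESeq2 again called 0 (background 0.0578%). Col4a5 had the smallest p there (4.92, SE 1.07, adjusted p = 0.271). In fibroblast-gated cells Col4a5 stood at 13.1, 18.3, 20.7 and 15.6 CPM, overlapping between genotypes. For the genes called in near-empty droplets the interaction was 0.94 (SE 1.12) for Col8a1, -0.21 (SE 1.85) for Col11a1 and -0.56 (SE 0.36) for Col6a5, none past the threshold.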

How the data were processed

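Single-cell RNA was measured in 4 tumours. The authors deposited raw UMI counts per gene and barcode for mouse and human features, made with Cell Ranger 3.1.0 on mm10 per the submitters' processing notes; mouse features were used. Here barcodes were kept from 500 UMIs and 250 genes upward if mitochondrial UMIs did not exceed 20%. Those under 5000 UMIs were also tested against free RNA (10000 simulations, false discovery rate 0.001), and Scrublet doublets were removed. A cell entered a class with UMIs of at least 3 of its markers and a summed marker UMI count at least 3 times that of any other class. UMIs were summed per library and class and tested with edgeR 4.0.16 (filterByExpr, TMM normalisation, quasi-likelihood test, Benjamini-Hochberg adjustment over all genes tested, threshold 0.05; R 4.3.3). DESeq2 1.42.0 was an alternative, beside other gates, filters, the replicate block and leaving out each library. Log2 differences are knockout minus WT unless stated. CPM divide by the UMI total of each sum. Near-empty droplets held 1 to 100 UMIs. Shares of UMIs were compared with an exact permutation test. For shares of cells, cells were also thinned to 2000 UMIs. Intervals are exact at 95%, and with limits of 3 counts cover counting error only.

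Collagens with at least 20 UMIs in a class could be named. Values in every sample are given for the 10 with the most UMIs in fibroblast-gated cells and for those past the threshold. Of other gene lists, up to 4 called genes by p are named, or otherwise the 2 with the smallest p. The members, lists and tests were chosen with earlier results of these data known. The scripts were tested on simulated data. Figures were drawn with matplotlib 3.10.9.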

Additional observations from a re-analysis of the deposited data

Results flagged for a closer look

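The matrices also carry 44 human collagen features, which no comparison used. They held 7, 15, 2 and 13 UMIs in WT replicates 1 and 2 and Il1a-/- replicates 1 and 2. These are 0.298 (exact 95% counting interval 0.12 to 0.615), 0.517 (0.289 to 0.853), 0.298 (0.0361 to 1.08) and 0.85 (0.452 to 1.45) CPM of the whole library. The value of Il1a-/- replicate 2, 0.85, lay above both WT values, and its interval overlapped theirs.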

How the results depend on the processing

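In fibroblast-gated cells the count of collagens past the threshold, 0, became 1 with DESeq2 and 5 with no filter on low counts, and was 0 without each library in turn. Of all genes, 0.0832% passed there with DESeq2 and 1.36% with no filter. In phagocyte-gated cells the count became 1 with no filter, with 3.4% of all genes. In near-empty droplets the 4 became 15 with no filter, with 5.06% of all genes. The interactions became 2 against phagocyte-gated cells (0.552% of all genes) and 1 against near-empty droplets (0.557%) with no filter. The 6 calls between cells with and without a Pi16 or Dpp4 UMI became 13 with no filter, with 4.43% of all genes. They ranged from 1 to 6 with a library left out. The cause was not tested.

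Leaving out a library turned the sign of fibroblast log2 differences that were not called: Col3a1 ranged from -0.30 to 0.33, Col1a2 from -0.86 to 0.62, Col1a1 from -0.88 to 0.96, Col5a2 from -0.92 to 0.34, Col14a1 from -0.13 to 0.61, Col5a1 from -0.31 to 0.67, Col12a1 from -3.89 to 0.044, Col4a1 from -1.72 to 0.90 and Col4a2 from -1.71 to 0.78. In cells with a Pi16 or Dpp4 UMI Col3a1 was -0.014, and in cells without one Col5a1 was -0.025, both added after seeing the data. The difference in collagen share of fibroblast-gated cells was 0.0106 points with a gate of 5 markers, 0.0751 with no doublet removal and -1.86 to 1.73 with a library left out. In near-empty droplets it ranged from -0.113 to 0.085 with a library left out. It was 0.024 in barcodes of 1 to 20 UMIs and -0.194 in those of 21 to 100, both added after seeing the data.

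Replicate numbers were not taken to pair the samples, since only 2 numbers exist and the labels tie them to no day. Deviations of same-numbered samples correlated at 0.40 over genes in fibroblast-gated cells, 0.06 in phagocyte-gated cells and 0.16 in near-empty droplets. Over the collagens alone they correlated at 0.84 (26 genes), 0.53 (3 genes) and 0.61 (26 genes). With the replicate block, 0 collagens passed in fibroblast-gated cells (0% of all genes) and 0 in phagocyte-gated cells (4.54%). In near-empty droplets 11 passed (2 higher, 9 lower). Calls over all genes rose there too, from 1.22% without the block to 5.56% with it. The fibroblast share difference was 0.232 points within replicate number 1 and -0.356 within number 2. Depth limits Il1a-/- replicate 1 most, with 6705368 UMIs.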

Other observations

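Cells gated as plasmacytoid dendritic, which sense viral nucleic acids, carried a pair of collagens. Col6a6, a type VI chain, had a UMI in 47 of 172 (27.3%), 25 of 92 (27.2%), 11 of 88 (12.5%) and 14 of 77 (18.2%) of them, in the order WT replicates 1 and 2 and Il1a-/- replicates 1 and 2. Col17a1 had one in 22.7%, 26.1%, 4.55% and 11.7%. Median depths were 5960, 7145.5, 2574.5 and 5357 UMIs. In T and natural killer cells, at medians of 2943, 4220.5, 1354.5 and 2818 UMIs, Col6a6 was seen in 0%, 0.0903%, 0% and 0.0927% of cells and Col17a1 in 0%, 0%, 0% and 0.0464%. Thinned to 2000 UMIs, the plasmacytoid dendritic shares were 12.7%, 9.73%, 11.3% and 7.93% for Col6a6, overlapping between genotypes. For Col17a1 they were 10.3%, 9.55%, 3.41% and 5.82%, higher in both WT samples. Shallower cells left out numbered 9, 5, 10 and 4. Collagens were 0.0191% ± 0.00159 of the UMIs of plasmacytoid dendritic cells in WT and 0.0119% ± 0.000717 in knockout samples (SD, n = 2 each; exact permutation p = 0.333, the smallest this design allows). No test by genotype across genes was run in them.

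Col14a1 had a UMI in 41 of 390 phagocyte-gated cells of WT replicate 1 (10.5%, exact 95% interval 7.65% to 14%), against 1.80%, 0% and 1.14% in the other libraries and 0.44% of that library's T and natural killer cells. Thinned to 2000 UMIs the phagocyte shares were 4.97%, 0.642%, 0% and 0.275%, leaving out 79, 189, 79 and 64 cells. Col6a1 had a UMI in 30 of 219 tumour-gated cells of WT replicate 2 and in 4 of 327 of WT replicate 1, and 1 cell of the former held 91.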
